A study of Mus musculus with 6 samples.

Results

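The genes described here are the ligands and receptors of the tumour necrosis factor (TNF) superfamily, together with the TRAF adaptor proteins that many of these receptors bind. They were chosen by symbol from a table of 17030 genes. The rule takes every symbol that starts with Tnfrsf or Tnfsf, every TRAF gene with a single digit, and Tnf, Lta, Ltb, Ltbr, Cd40, Cd40lg, Cd27, Cd70, Fas, Fasl, Eda2r and Ngfr. It found 48 genes. They comprise 15 ligands, 6 receptors with a death domain, 15 receptors that bind TRAFs, 3 decoy receptors, Tnfrsf26, 7 TRAFs and 1 antisense RNA, Tnfsf13os. Cd70 is named in the rule and was not analysed here.

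RNA was sequenced in bulk from the mononuclear cells of skeletal muscle. The 6 mice were male, of strain C57BL/B6, and all bore Lewis lung carcinoma (LLC), a transplantable tumour used to study cancer cachexia. The genotype Pax7 Cre ErT x IKKbfl/fl, called Pax7-CreERT here, was carried by 3 mice, and the genotype IKKbfl/fl, the controls, by the other 3. All 6 mice were therefore homozygous for floxed IKKb, a kinase of the canonical NF-kB pathway, and all received tamoxifen from day 10 to day 14 after tumour cell injection. The Cre is driven by Pax7, a marker of muscle satellite cells, so deletion is directed to those cells, while the RNA comes from all mononuclear cells. No group carried Cre without floxed alleles, so Cre itself and loss of IKKb cannot be told apart. Each library is taken as 1 mouse, and p-values measure the spread between these libraries.

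TNF superfamily ligands are mostly trimeric proteins on leukocytes and stromal cells that cluster their receptors. Some receptors with a death domain can start apoptosis through FADD and caspases. Many receptors, with or without a death domain, lead to recruitment of TRAFs and activate NF-kB and MAP kinases. TRAF2 brings ubiquitin ligases to the receptor, and TRAF3 restrains the kinase NIK and so the alternative NF-kB pathway. In muscle, TNF, TWEAK (Tnfsf12) acting on its receptor Fn14 (Tnfrsf12a), and ectodysplasin signalling through Eda2r have each been linked to wasting.

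Expression is given as CPM, the reads that fell on a gene out of every 1000000 assigned to genes. Estimated depth was 4913000 to 13355000 assigned reads in Pax7-CreERT mice and 4054000 to 7423000 in controls, so a gene at 10 CPM carried a counting SD of 8.65% to 15.7% in a library. Control replicate 3 stood apart, at 51.6 on the first principal component against -16.98 to 0.20 in the other 5 libraries, and it was also the shallowest. Its summed CPM over 8 erythroid markers was 119890, against 16139 to 45604 in the other libraries. Ikbkb, the floxed gene, measured 50.8 ± 2.23 CPM in Pax7-CreERT mice and 52.5 ± 4.40 CPM in controls (SD, n = 3 each). These gene totals do not show whether the floxed exons were lost in satellite cells. Defining markers of endothelial cells, pericytes, fibro-adipogenic progenitors, satellite cells and macrophages were detected in every library. Of 13 lists of cell type markers, the sums of 3 did not overlap between the genotypes. The 12 myofibre markers summed to 2005 to 2834 CPM in Pax7-CreERT mice and 973 to 1632 CPM in controls, and the 12 satellite cell markers to 632 to 719 CPM in Pax7-CreERT mice and 579 to 602 CPM in controls. Among the satellite cell markers only Des did not overlap, at 179 to 241 CPM in Pax7-CreERT mice and 123 to 156 CPM in controls. Pax7 itself overlapped, at 14.4 to 19.3 CPM in Pax7-CreERT mice and 10.9 to 21.6 CPM in controls. The 10 pericyte and smooth muscle markers summed to 9469 to 11888 CPM in Pax7-CreERT mice and 7412 to 9450.5 CPM in controls. Their part in the results was not tested.

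Across the family, no difference between the genotypes passed the test over all genes. Of the 39 members with at least 1 CPM in at least 3 libraries, 0 passed limma's test at an adjusted p under 0.05 (smallest adjusted p = 0.891), where 1 of 14763 genes, or 0.00677%, did. At an unadjusted p under 0.05 there were 2 members, Tnfrsf9 and Tnfsf14. Both had lower values in Pax7-CreERT mice. They are 5.13% of the members tested, against a background of 5.52% of all genes, or 0.942% in the lower direction. The CPM values of the groups did not overlap for 4 members, or 10.3%, against 11.0% of all genes. Of these, 3 were lower, against 2.28% of all genes, and 1 was higher, against 8.69%. Tnfrsf9 is in both lower counts and met the filter through the controls alone, so it could enter the test only by being lower in Pax7-CreERT mice. In both directions together, these shares of the members are close to those of all genes.

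The median log2 fold change of the 39 members, Pax7-CreERT minus control on log2(CPM + 1), was 0.01, against 0.09 over all genes tested. It was above 0 in 20 members and below 0 in 19, whereas 68.0% of all genes were above 0. With trimmed-mean (TMM) scaling the members' median was -0.07 and that of all genes 0.01. With those factors 13 members were above 0 and 26 below, and 3 had an unadjusted p under 0.05. The groups then did not overlap for 6 members, or 15.4%, against 9.90% of all genes. These were Fas, Tnfrsf1b, Tnfrsf9, Tnfsf13, Tnfsf13b and Tnfsf14, all of them lower, where 4.73% of all genes were lower and 5.17% higher. Here too Tnfrsf9 could enter only by being lower in Pax7-CreERT mice. The unadjusted count over all genes was then 2.61% higher and 2.03% lower, where it was 4.58% and 0.942% without them. Leaving out any 1 library raised the share of all genes without overlap. The members' share rose too, except without control replicate 1. It was 7 of 39 members, or 17.9%, without Pax7-CreERT replicate 1, against 17.9% of all genes, and 9 of 36 without control replicate 3, against 21.3%. It was 7 of 37, or 18.9%, without Pax7-CreERT replicate 3 and again without control replicate 2, against 23.9% and 22.2% of all genes. Without Pax7-CreERT replicate 2 it was 5 of 39, or 12.8%, against 17.99% of all genes. Without control replicate 1 it was 3 of 37, or 8.11%, against 23.7% of all genes. The 95% interval lay within a 2-fold change in either direction of CPM + 1 for 30 of the 39 members. Near 1 CPM this bound is wider on the scale of CPM itself.

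**Figure D1:**
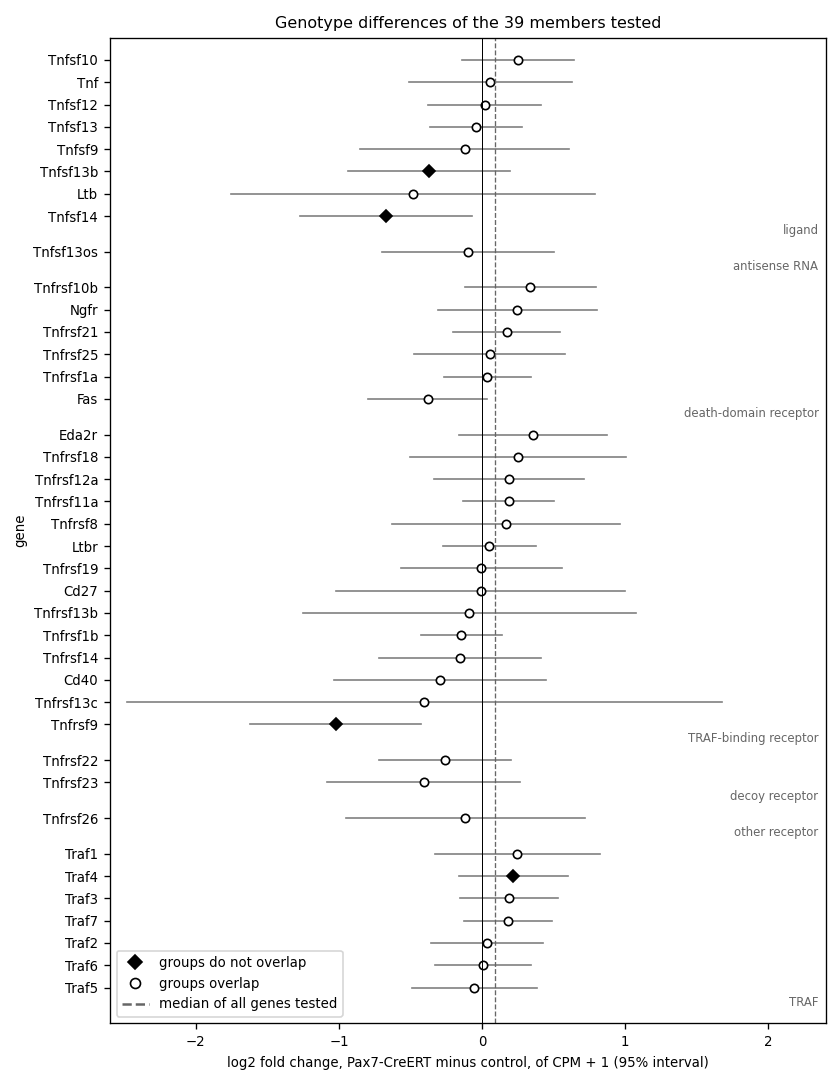
Log2 fold changes of the 39 members tested, Pax7-CreERT minus control on log2(CPM + 1), with 95% intervals, grouped by role. Filled diamonds mark the 4 members whose groups do not overlap, open circles the others, and the dashed line the median of all genes tested at 0.09. Tnfrsf9 at -1.02 and Tnfsf14 at -0.67 are the members whose intervals lie below 0.

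Levels of different genes were compared as CPM per kb of merged exons, since longer transcripts give more reads. The death-domain receptor gene Tnfrsf1a, which binds TNF, averaged 55.8 ± 5.14 CPM per kb over the 6 libraries (SD, n = 6). The TWEAK gene Tnfsf12 averaged 55.8 ± 8.84 CPM per kb. Both lay above 96.3% of the genes with a known length. Ltbr, the lymphotoxin beta receptor, followed at 30.6 ± 3.46, the TRAIL gene Tnfsf10 at 29.1 ± 4.72, Tnfrsf1b at 25.5 ± 2.36 and Tnfrsf21 at 24.1 ± 3.75 CPM per kb. At the other end stood ligands made mainly by lymphocytes or at low levels. Tnfsf8, Tnfsf18, Tnfsf11 and Cd40lg averaged 0.0865 to 0.239 CPM per kb. Among the TRAFs the range was narrower, from 0.671 CPM per kb for Traf1 to 8.01 CPM per kb for Traf6.

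**Figure D2:**
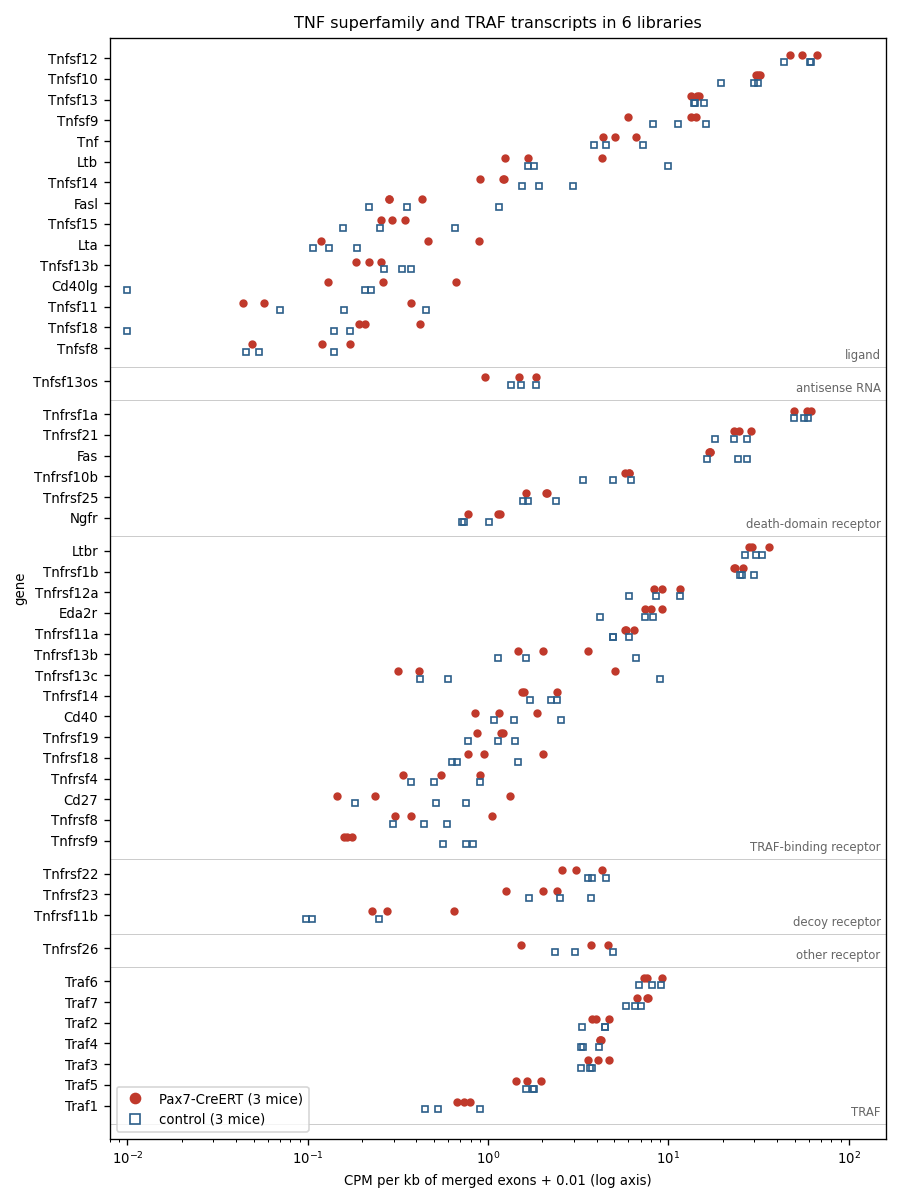
CPM per kb of merged exons, plus 0.01, on a log axis for all 48 members in the 3 Pax7-CreERT libraries (filled circles) and the 3 control libraries (open squares), grouped by role and ordered by mean level. Members span from 0.0865 CPM per kb for Tnfsf8 to 55.8 CPM per kb for Tnfrsf1a, and the filled and open symbols are intermixed for most of them. A value at 0.01 is listed at 0 in that library.

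Among the ligands, Tnf, the founding inflammatory cytokine, measured 10.8, 8.31 and 7.12 CPM in the Pax7-CreERT mice and 6.35, 11.9 and 7.40 CPM in the controls, here and throughout in the order of replicates 1 to 3. All Pax7-CreERT values lay inside the control range. The log2 fold change was 0.06 (95% interval -0.51 to 0.63, adjusted p = 0.979 by limma) and -0.02 with TMM factors. Its 2 receptors also overlapped between the genotypes. Tnfrsf1a, the receptor with a death domain, measured 161, 151 and 128 CPM in Pax7-CreERT mice and 129, 153 and 146 CPM in controls, a log2 fold change of 0.04 (95% interval -0.27 to 0.34) that was -0.05 with TMM factors. Tnfrsf1b, which lacks a death domain and is found mainly on leukocytes and endothelium, measured 98.9, 89.2 and 88.3 CPM in Pax7-CreERT mice and 95.4, 113 and 98.2 CPM in controls. Of the Tnfrsf1b values, 1 in the Pax7-CreERT group lay inside the control range. It differed by -0.15 on the log2 scale (SE 0.13, adjusted p = 0.903), and -0.24 with TMM factors, where the groups did not overlap. With 1 library left out it was -0.20 to -0.07. The ratio of Tnfrsf1a to Tnfrsf1b per kb was 2.34 ± 0.184 in Pax7-CreERT mice and 2.06 ± 0.113 in controls (SD, n = 3 each; exact 2-sided permutation p = 0.2, where 3 against 3 cannot give less than 0.1).

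TWEAK and its receptor did not separate the groups. Tnfsf12 measured 71.6, 82.8 and 101 CPM in Pax7-CreERT mice and 66.4, 93.2 and 92.5 CPM in controls. Its log2 fold change was 0.02 (95% interval -0.37 to 0.41), and -0.07 with TMM factors. Tnfrsf12a, or Fn14, a small receptor induced in injured and wasting muscle, measured 22.5, 17.7 and 16.1 CPM in Pax7-CreERT mice and 22.2, 16.4 and 11.6 CPM in controls. For Tnfrsf12a the log2 fold change was 0.19 (SE 0.24, adjusted p = 0.934), -0.04 without control replicate 3, where its value was lowest, and 0.40 without control replicate 1. Tnfsf13, or APRIL, a ligand of B cell and plasma cell receptors, varied least of the members tested, with 21.8, 24.1 and 23.4 CPM in Pax7-CreERT mice and 23.1, 25.7 and 22.7 CPM in controls. Tnfsf12 and Tnfsf13 are neighbours on chromosome 11, and Tnfsf13os lies across both on the other strand. Tnfsf13os overlaps 4902 bases of Tnfsf12 and all 2978 bases of Tnfsf13. The library kit keeps the strand, but the counting rule is not given in the sources used here, so the 3 cannot be fully separated. Tnfsf13os itself had 1.05, 2.02 and 1.63 CPM in Pax7-CreERT mice and 1.67, 2.02 and 1.48 CPM in controls.

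TRAIL and its receptors measured as follows. Tnfsf10, which encodes TRAIL, a death ligand, had 160.4, 169 and 165 CPM in Pax7-CreERT mice and 156, 165 and 103 CPM in controls. Control replicate 3 alone lay far below the rest. For Tnfsf10 the log2 fold change was 0.25 (SE 0.18, adjusted p = 0.899), and 0.04 (control replicate 3) to 0.37 (control replicate 2) with 1 library left out. Tnfrsf10b, the TRAIL receptor with a death domain, had 32.9, 32.9 and 31.3 CPM in Pax7-CreERT mice and 26.7, 33.7 and 18.3 CPM in controls, which is 0.34 on the log2 scale (SE 0.21, adjusted p = 0.896). Leaving out control replicate 3 gave 0.11, and leaving out control replicate 2 gave 0.53. The mouse genes Tnfrsf22 and Tnfrsf23 encode TRAIL receptors without a death domain. Tnfrsf22 had 12.9, 17.9 and 10.8 CPM in Pax7-CreERT mice and 15.0, 18.9 and 15.8 CPM in controls. Tnfrsf23 had 4.94, 9.51 and 7.94 CPM in Pax7-CreERT mice and 9.86, 14.7 and 6.66 CPM in controls. In both genes the groups overlapped, with log2 fold changes of -0.26 for Tnfrsf22 and -0.41 for Tnfrsf23 (adjusted p = 0.899 for each). With 1 library left out, Tnfrsf22 was -0.45 to -0.11. Tnfrsf23 was -0.66 without control replicate 3, where the groups did not overlap, -0.17 without Pax7-CreERT replicate 1 and -0.15 without control replicate 2. Transcripts of these paralogs share 94.3% of the bases in their best alignment, and 28.9% of the 50-base windows of Tnfrsf23 also occur in Tnfrsf22, so reads can be divided between them and both values are uncertain. E230032D23Rik also runs across both on the opposite strand.

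Fas, the death receptor for the Fas ligand, was even in the Pax7-CreERT mice and uneven in the controls. It measured 34.6, 35.2 and 35.2 CPM in Pax7-CreERT mice, against 50.3, 56.4 and 33.8 CPM in controls. The first 2 controls lay above all Pax7-CreERT mice and the third below them. The log2 fold change was -0.38 (SE 0.19, adjusted p = 0.896). It was -0.47 with TMM factors, where the groups did not overlap. Leaving out control replicate 3 gave -0.59 and leaving out control replicate 2 gave -0.23. Its ligand Fasl, made by cytotoxic lymphocytes, had 5, 7 and 4 estimated reads in Pax7-CreERT mice and 4, 3 and 9 in controls, and was not tested. Among the other death-domain receptors, Tnfrsf21 had 95.4, 118 and 101 CPM in Pax7-CreERT mice and 94.3, 113 and 74.5 CPM in controls (log2 fold change 0.17, SE 0.17). Ngfr, the neurotrophin receptor of Schwann cells and other cells, had 3.99, 3.89 and 2.65 CPM in Pax7-CreERT mice and 2.51, 2.43 and 3.45 CPM in controls (0.25, SE 0.25). The adjusted p was 0.914 for Tnfrsf21 and 0.916 for Ngfr, and the groups overlapped in both. With 1 library left out, Tnfrsf21 was 0.02 (without control replicate 3) to 0.31 (without control replicate 2), and Ngfr 0.16 to 0.39. Summed over 10 Schwann cell markers, the libraries held 1400 to 1839 CPM in Pax7-CreERT mice and 1301 to 1438 CPM in controls.

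Among the 39 members tested, the largest log2 fold change was that of Tnfrsf9, a costimulatory receptor that activated T and NK cells induce and that signals through TRAF1 and TRAF2. It measured 0.421, 0.449 and 0.407 CPM in Pax7-CreERT mice, against 1.50, 2.02 and 2.22 CPM in controls. All 3 Pax7-CreERT values lay well below the lowest control. These values stand for an estimated 12 reads in the Pax7-CreERT mice and 33 in the controls. The mean was 0.426 ± 0.0216 CPM in Pax7-CreERT mice and 1.92 ± 0.369 CPM in controls (SD, n = 3 each). The log2 fold change was -1.02 (SE 0.27, adjusted p = 0.891, unadjusted limma p = 0.00337, exact permutation p = 0.1, the smallest that 3 against 3 can give). Tnfrsf9 reached 1 CPM in the controls alone, the 1 member of which this was true, so it could enter the test only by being higher there. With 0.25 in place of 1 as the constant the log2 fold change was -1.67. Leaving out each Pax7-CreERT library gave -1.04 to -1.01, and without any control library the gene no longer met the filter. The gene lies on chromosome 4 at 150920155 to 150946102 of mm10. Summed over 12 T and NK cell markers, the libraries held 34.3 to 47.6 CPM in Pax7-CreERT mice and 22.4 to 61.7 CPM in controls, with Cd3e, Cd3g, Klrb1c, Ncr1 and Gzma at 0 in at least 1 library. Thy1 was the largest part of the sum in every library, at 11.99 to 22.5 CPM. Cd2 was highest in replicate 3 of each genotype, at 12.8 CPM in the Pax7-CreERT mouse and 17.3 CPM in the control. Lck was at most 1.83 CPM and Cd3g at most 1.23 CPM, so the sum is a weak measure of T and NK cells. The part of these cells in the Tnfrsf9 result was not tested. Its ligand Tnfsf9 had 18.3, 7.71 and 17.1 CPM in Pax7-CreERT mice and 14.5, 20.7 and 10.6 CPM in controls, with overlapping groups.

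Because IKKb acts through NF-kB, the 250 bases before each RefSeq gene start were searched on both strands for the kappaB consensus bound by NF-kB. Of the 39 members with such a window, 4 had a match, or 10.3%, against 4.46% of 27025 genes. The 4 windows are shown with the matching bases in capitals, each 5′ to 3′ on the strand of the gene, from RefSeq for GRCm38.p6. Those of Tnfrsf9 (chr4:150927749-150927998, plus strand, before an alternative start inside the gene, with 2 overlapping matches that begin 43 and 42 bases before it), Ltb (chr17:35194257-35194506, plus strand, 87 bases before), Tnfrsf8 (chr4:145315165-145315414, minus strand, 168 bases before) and Traf3 (chr12:111166120-111166369, plus strand, 10 bases before) are:
Tnfrsf9: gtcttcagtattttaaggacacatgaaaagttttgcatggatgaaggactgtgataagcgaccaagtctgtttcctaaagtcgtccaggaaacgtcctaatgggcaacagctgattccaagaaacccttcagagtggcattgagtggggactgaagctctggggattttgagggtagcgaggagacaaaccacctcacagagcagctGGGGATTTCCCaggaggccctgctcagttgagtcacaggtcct
Ltb: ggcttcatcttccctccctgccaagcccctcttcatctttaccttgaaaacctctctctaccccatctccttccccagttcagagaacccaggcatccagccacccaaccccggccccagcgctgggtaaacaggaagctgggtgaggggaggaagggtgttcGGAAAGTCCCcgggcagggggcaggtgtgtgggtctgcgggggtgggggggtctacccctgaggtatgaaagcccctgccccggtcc
Tnfrsf8: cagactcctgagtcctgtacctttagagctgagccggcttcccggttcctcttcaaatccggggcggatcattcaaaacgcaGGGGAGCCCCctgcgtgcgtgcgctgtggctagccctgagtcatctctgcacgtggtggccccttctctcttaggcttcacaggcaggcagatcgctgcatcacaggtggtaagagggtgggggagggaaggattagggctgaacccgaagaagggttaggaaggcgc
Traf3: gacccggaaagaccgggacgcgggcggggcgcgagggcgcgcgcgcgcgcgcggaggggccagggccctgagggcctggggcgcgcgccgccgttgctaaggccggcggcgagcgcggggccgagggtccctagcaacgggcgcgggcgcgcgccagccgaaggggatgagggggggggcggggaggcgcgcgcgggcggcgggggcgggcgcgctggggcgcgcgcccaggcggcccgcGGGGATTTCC
A match describes these letters and shows no binding. The first start of Tnfrsf9 at 150920155 had no match in its window, nor had those of Tnf, Fas, Tnfsf14 and Tnfsf13b. This does not show that these genes lack kappaB sites. Sites outside the 250 bases, or with letters that depart from the consensus, were not searched. Gene totals do not tell which start of Tnfrsf9 the reads came from. Of the others, Tnfrsf8, a costimulatory receptor, had 1.26, 3.59 and 1.02 CPM in Pax7-CreERT mice and 2.01, 1.48 and 0.987 CPM in controls.

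The other members with lower values in every Pax7-CreERT mouse were ligands. Tnfsf14, or LIGHT, a ligand of Tnfrsf14 and of the lymphotoxin beta receptor, measured 2.21, 1.65 and 2.24 CPM in Pax7-CreERT mice, against 3.51, 2.83 and 5.43 CPM in controls. The Tnfsf14 groups did not overlap, and control replicate 3 was the highest library. On the log2 scale the difference was -0.67 (SE 0.27, adjusted p = 0.891, unadjusted limma p = 0.0319, exact permutation p = 0.1), and -0.83 (control replicate 2) to -0.46 (control replicate 3) with 1 library left out. Tnfsf13b, or BAFF, a survival factor for B cells, measured 1.68, 1.20 and 1.42 CPM in Pax7-CreERT mice, against 2.51, 1.75 and 2.22 CPM in controls. The gap between the Tnfsf13b groups was narrow, from 1.68 to 1.75 CPM, and the log2 fold change was -0.37 (SE 0.25, adjusted p = 0.899). Summed estimated reads of Tnfsf14 were 54 in Pax7-CreERT mice and 64 in controls, and those of Tnfsf13b were 39 in Pax7-CreERT mice and 37 in controls. The receptors of LIGHT overlapped between the groups. Ltbr measured 68.8, 85.1 and 66.1 CPM in Pax7-CreERT mice and 71.7, 77.5 and 62.7 CPM in controls. Tnfrsf14 measured 2.21, 2.25 and 3.46 CPM in Pax7-CreERT mice and 3.18, 2.43 and 3.45 CPM in controls. Marker sums of macrophages and dendritic cells, which can make both ligands, overlapped between the genotypes. The 12 macrophage markers summed to 742 to 1039 CPM in Pax7-CreERT mice and 572 to 1408 CPM in controls, and the 7 dendritic cell markers to 158 to 203 CPM in Pax7-CreERT mice and 179 to 199 CPM in controls. Most of the dendritic cell sum came from Zbtb46, at 89.8 to 116 CPM over all libraries, and Clec9a, at 41.2 to 55.8 CPM. Itgax was at most 3.45 CPM and Xcr1 at most 1.83 CPM, so the sum is a weak measure of dendritic cells. No macrophage marker was at 0 in a library, and Cd209a of the dendritic cell markers was. Sums of 10 neutrophil markers also overlapped, at 74.0 to 118 CPM in Pax7-CreERT mice and 97.8 to 136 CPM in controls. The median log2 fold change of the 8 neutrophil markers tested was -0.39, and Ly6g and Camp were at 0 in a library. The part of these cells in the Tnfsf14 and Tnfsf13b results was not tested.

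**Figure D3:**
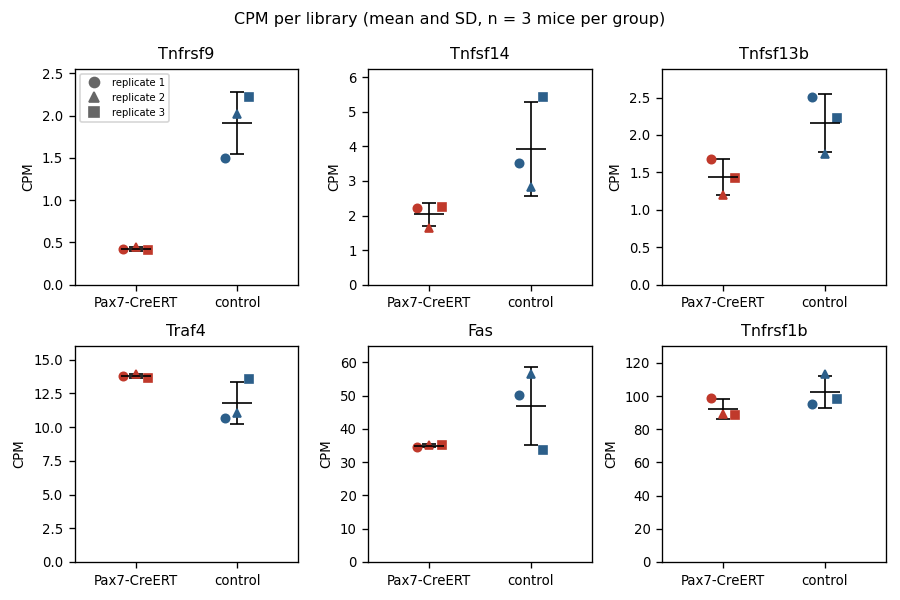
CPM per library for Tnfrsf9, Tnfsf14, Tnfsf13b, Traf4, Fas and Tnfrsf1b in Pax7-CreERT mice (left in each panel) and controls (right), with 1 symbol per replicate and bars for the mean and SD of 3 mice. Tnfrsf9 lies at 0.407 to 0.449 CPM in Pax7-CreERT mice and 1.50 to 2.22 CPM in controls, while Fas overlaps through control replicate 3 at 33.8 CPM.

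A set of lymphocyte members varied widely between mice of the same genotype. Tnfrsf13c, the BAFF receptor of B cells, measured 0.631, 0.824 and 10.4 CPM in Pax7-CreERT mice, and 0.836, 1.21 and 18.3 CPM in controls. Replicate 3 of each genotype stood far above the other 4 libraries. The range between the highest and the lowest library was 28.9-fold, against a median of 1.83-fold over the members tested and 1.64-fold over all genes. Tnfrsf13b, which binds BAFF and APRIL, had 5.68, 4.12 and 10.2 CPM in Pax7-CreERT mice and 3.18, 4.58 and 18.7 CPM in controls. Ltb, the membrane anchor of lymphotoxin, had 2.52, 1.87 and 6.51 CPM in Pax7-CreERT mice and 2.51, 2.69 and 15.0 CPM in controls. Tnfrsf13b and Ltb were highest in the same 2 libraries as Tnfrsf13c. Cd40, which B cells, macrophages and endothelium use to receive T cell help, had 2.84, 3.89 and 6.31 CPM in Pax7-CreERT mice and 4.68, 3.64 and 8.63 CPM in controls. Cd27, a receptor of T and memory B cells, had 0.315, 0.524 and 3.05 CPM in Pax7-CreERT mice and 1.17, 0.404 and 1.73 CPM in controls.

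B cell markers varied in the same way. The 7 markers Ms4a1, Cd79a, Cd79b, Pax5, Cd22, Blk and Fcmr summed to 16.9, 11.7 and 99.9 CPM in Pax7-CreERT mice and 17.2, 16.7 and 164 CPM in controls, and none was at 0 in any library. In bulk RNA, fewer cells of a type and less RNA per cell cannot be told apart. Per 1000 CPM of these markers, Tnfrsf13c amounted to 37.3, 70.5 and 104 CPM in Pax7-CreERT mice and 48.5, 72.6 and 111 CPM in controls, a narrower range than that of its CPM. It was still highest in replicate 3 of each genotype. These ratios rest on 6, 11 and 51 estimated reads of Tnfrsf13c in Pax7-CreERT mice and 5, 9 and 74 in controls. Tnfrsf13b amounted to 335, 353 and 102 CPM in Pax7-CreERT mice and 184, 274 and 114 CPM in controls by the same measure. The log2 fold changes of several of these members changed sign when a library was left out. That of Tnfrsf13c was -0.40 (SE 0.93, adjusted p = 0.964), 0.09 without Pax7-CreERT replicate 1 and -1.01 without control replicate 1. Without control replicate 2 or replicate 3 of either genotype Tnfrsf13c no longer met the filter, so no fit leaves out a library where it was high. Tnfrsf13b ranged from -0.53 to 0.59 with 1 library left out. For Ltb it was -0.48 (SE 0.57, adjusted p = 0.925) and 0.23 without control replicate 3. The part of these cells in the differences was not tested.

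**Figure D4:**
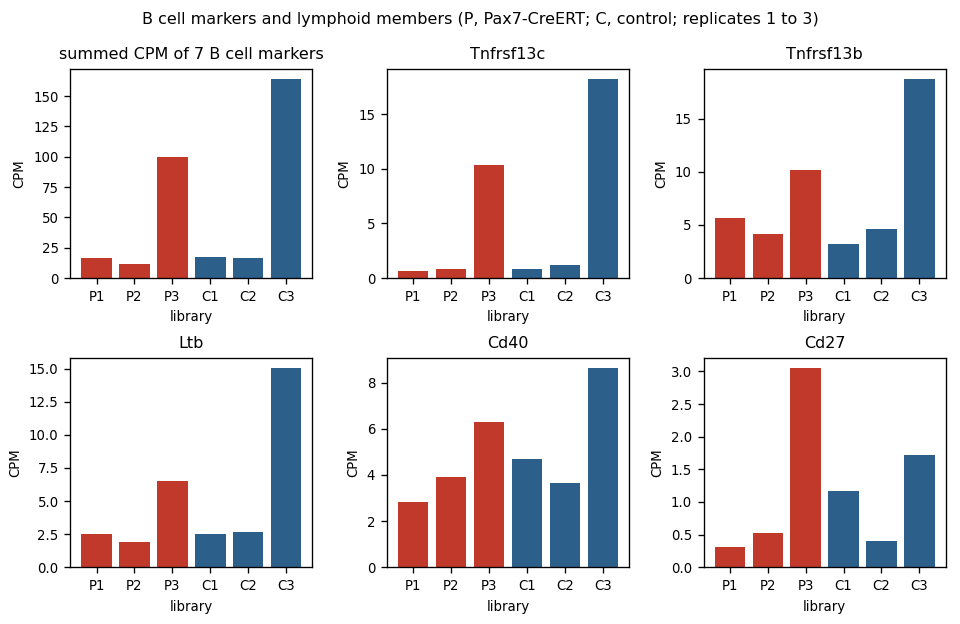
Summed CPM of 7 B cell markers and CPM of 5 lymphocyte members in each library (bars, 1 library each; P1 to P3, Pax7-CreERT replicates 1 to 3; C1 to C3, control replicates 1 to 3). P3 and C3 are the highest libraries in every panel, with marker sums of 99.9 CPM in P3 and 164 CPM in C3, against 11.7 to 17.2 CPM in the other 4.

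Of the receptors on stromal and muscle cells, Eda2r, the ectodysplasin A2 receptor, measured 47.2, 54.4 and 43.4 CPM in Pax7-CreERT mice and 48.1, 43.8 and 24.7 CPM in controls. Control replicate 3 was again lowest, and the other 5 libraries overlapped. The log2 fold change was 0.36 (SE 0.23, adjusted p = 0.896), 0.07 without control replicate 3 and 0.53 without control replicate 1. Control replicate 3 held the lowest value of 10 of the 39 members, or 25.6%, and of 39.9% of all genes tested. Tnfrsf11a, or RANK, the receptor of osteoclast precursors, measured 34.8, 34.5 and 38.7 CPM in Pax7-CreERT mice and 29.4, 29.5 and 36.0 CPM in controls (log2 fold change 0.18, SE 0.14, adjusted p = 0.899, and 0.13 to 0.28 with 1 library left out). Its ligand Tnfsf11 had 1, 1 and 4 estimated reads in Pax7-CreERT mice and 2, 1 and 4 in controls. The decoy receptor of that ligand, Tnfrsf11b or osteoprotegerin, had 1.79, 0.749 and 0.611 CPM in Pax7-CreERT mice and 0.669, 0.269 and 0.247 CPM in controls, and was not tested. Tnfrsf19, a receptor without a known TNF ligand, had 3.64 to 6.66 CPM over all libraries. Tnfrsf26 measured 4.84, 11.98 and 14.9 CPM in Pax7-CreERT mice and 7.52, 9.70 and 15.8 CPM in controls, with overlapping groups. Tnfrsf25, a death-domain receptor of T cells, ranged from 3.51 to 5.43 CPM, also with overlapping groups. Tnfrsf18, the GITR receptor of regulatory T cells, lay between 0.943 and 3.05 CPM, and its counts may include the antisense gene Gm16008, which spans it. Cd27 is likewise spanned by E130112N10Rik.

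The members too faint to test numbered 9. They were Cd40lg, Fasl, Lta, Tnfrsf4, Tnfrsf11b, Tnfsf8, Tnfsf11, Tnfsf15 and Tnfsf18, with 12 to 49 estimated reads over the 6 libraries and at most 2.22 CPM in any of them. Most are ligands or receptors of activated lymphocytes. Lta, or lymphotoxin alpha, had 6, 2 and 6 estimated reads in Pax7-CreERT mice and 1 in each control. In CPM, which allows for depth, the Lta groups overlapped, at 0.150 to 1.22 in Pax7-CreERT mice and 0.135 to 0.247 in controls. Tnfsf18, the GITR ligand, had 8, 5 and 2 estimated reads in Pax7-CreERT mice and 2, 2 and 0 in controls. Cd40lg, the ligand of Cd40, had 3, 2 and 4 estimated reads in Pax7-CreERT mice and 0, 2 and 1 in controls, with overlapping groups. It was listed at 0 in control replicate 1, as was Tnfsf18 in control replicate 3. When fitted with no filter, none had an unadjusted limma p under 0.05, and the smallest was that of Tnfrsf11b. The Tnfsf18 groups did not overlap, at 0.374 to 0.841 CPM in Pax7-CreERT mice and 0 to 0.334 CPM in controls. With no filter, 5 of the 48 members, or 10.4%, did not overlap, against 11.0% of all 17030 genes. Tnfrsf13b and Tnfrsf13c were the receptors of BAFF found in the table, and Tnfrsf17 was not analysed here.

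All 7 TRAFs were measured in every library, and 6 of them had a log2 fold change above 0. Their median was 0.18, against 0.09 over all genes, and 0 of 7 passed. With TMM factors the median was 0.09 and 4 of the 7 were above 0. Traf4 measured 13.8, 13.9 and 13.6 CPM in Pax7-CreERT mice and 10.7, 11.0 and 13.6 CPM in controls. The lowest Pax7-CreERT value and the highest control value both round to 13.6 CPM, and with TMM factors the groups overlapped. The log2 fold change was 0.22 (SE 0.17, adjusted p = 0.899). Traf3, the brake on NIK, measured 26.2, 29.7 and 34.2 CPM in Pax7-CreERT mice and 23.9, 26.9 and 27.6 CPM in controls, a log2 fold change of 0.19 (SE 0.15). Traf7, an atypical member with WD40 repeats in place of the TRAF domain, measured 44.9, 44.6 and 39.5 CPM in Pax7-CreERT mice and 34.1, 41.2 and 38.2 CPM in controls, a log2 fold change of 0.18 (SE 0.14). The groups of both genes overlapped, and with 1 library left out Traf3 was 0.09 to 0.28 and Traf7 0.11 to 0.24. Traf1, an NF-kB target that binds TRAF2, measured 6.41, 5.84 and 6.92 CPM in Pax7-CreERT mice and 3.84, 4.58 and 7.89 CPM in controls, a log2 fold change of 0.25 (SE 0.26) that was 0.07 (control replicate 1) to 0.50 (control replicate 3) with 1 library left out. Traf2 ranged from 16.8 to 24.0 CPM, Traf5 from 6.44 to 8.96 CPM, with overlapping groups. Traf6, the adaptor of interleukin and Toll-like receptors, measured 57.8, 72.3 and 59.6 CPM in Pax7-CreERT mice and 63.5, 71.7 and 54.0 CPM in controls, again with overlapping groups.

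Downstream of the receptors, 44 adaptors, kinases, ubiquitin enzymes and induced genes of TNF signalling were all tested, and 0 passed at an adjusted p under 0.05 (limma). At an unadjusted p under 0.05, 2 had higher values, against 4.58% of all genes, and none lower. The median log2 fold change was 0.07, against 0.09 over all genes, with 30 genes above 0 and 14 below. With TMM factors the median was -0.02 and the count at an unadjusted p under 0.05 was 0. Traf3ip2, an adaptor that binds TRAF proteins, measured 14.7, 12.7 and 14.2 CPM in Pax7-CreERT mice and 10.4, 8.89 and 11.1 CPM in controls (log2 fold change 0.42, SE 0.17, adjusted p = 0.891). Tnfaip6, a secreted hyaluronan-binding protein induced by TNF, measured 30.1, 12.9 and 22.8 CPM in Pax7-CreERT mice and 13.2, 12.3 and 13.8 CPM in controls (0.63, SE 0.26, adjusted p = 0.891), with overlapping groups. Adam17, the sheddase that releases TNF and its receptors, measured 88.4, 103 and 92.4 CPM in Pax7-CreERT mice and 83.6, 81.0 and 88.1 CPM in controls. Relb, a subunit of the alternative NF-kB pathway, measured 14.1, 14.5 and 14.5 CPM in Pax7-CreERT mice and 13.5, 14.0 and 11.3 CPM in controls. The groups of Adam17, Relb and Traf3ip2 did not overlap, 3 of 44 genes against the 8.69% of all genes that were higher without overlap. With TMM factors 1 was higher and 2 were lower without overlap. The log2 fold change was 0.17 for Adam17 (adjusted p = 0.899) and 0.14 for Relb (adjusted p = 0.925).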

How the data were processed

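Mononuclear cell RNA was extracted with Trizol and made into libraries with the SureSelect Strand Specific kit, per the labels' protocols. The submitters' processing notes name Partek, DESeq2 and mm10 without their roles. The aligner, counting rule and annotation are not given in the sources used here. The deposited values are CPM with 0.0001 added by the authors, read from the column sums of 1000000 plus that constant, which was subtracted. Columns were assigned to samples by title, and 0 columns were left unused. Replicates were numbered by record order and pair nothing.

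On log2(CPM + 1), limma (version 3.58.1, R version 4.3.3) was run with a mean-variance trend. Genes that reached 1 CPM in 3 or more libraries were kept, 14763 in all, and p-values were adjusted over them by the Benjamini-Hochberg method. Fold changes of genes near 1 CPM are understated on this scale. The test was run first on simulated data with known changes. Depth was estimated from the CPM of 1 read. Of values up to 20 reads, 92.9% to 93.9% were whole within 0.05 read, under the 95% required to use reads, so estimated reads are approximate and counting errors cover sampling only. Exact 2-sided permutation tests used SciPy 1.17.1. Gene lengths and transcripts came from GENCODE M21 (all 48 members matched), and promoters from RefSeq (39 members matched). Ends were set back by 1 base, after which 33 starts and 32 ends of members equalled RefSeq. Values in every library are given for members with an unadjusted p under 0.05 or groups that do not overlap, the 3 with most reads in each role, and set ligand and receptor pairs. Other members, and the genes shown in addition, were chosen after their values were seen. Alternatives were another constant, no filter, TMM or quantile scaling, array weights and libraries left out. The listed markers Cd3d, Nkg7, Ighm, Ighd and Flt3 were not analysed here, and a further B cell marker is not reported here and enters no sum. The members and lists were chosen with earlier results of these data known.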

Additional observations from a re-analysis of the deposited data

How the results depend on the processing

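No paired analysis was possible because replicates were numbered by record order and the labels pair no mice. No member passed an adjusted p under 0.05 under any alternative run. Over all genes, 1 passed, against 0 to 1 with 1 library left out, 2 with no filter on low values, 2 without Pax7-CreERT replicate 1 and control replicate 3, and 22 without replicate 3 of both genotypes, a setting chosen after seeing the data that leaves 2 mice against 2. Leaving out 1 library gave 1 to 3 members at an unadjusted p under 0.05 and 3 to 9 without overlap. The shares of all genes at that p in these fits are not reported here, so nothing is read from that count. Those pairs of libraries gave 13 of 36 members without overlap, or 36.1% against 31.4% of all genes, and 14 of 36, or 38.9% against 38.6%, and with 1 library left out the share of all genes was 17.9% to 23.9%. The members' median log2 fold change was -0.069 with TMM factors, -0.075 with quantile normalization, 0.07 without Pax7-CreERT replicate 1 and control replicate 3, and -0.034 to 0.10 with 1 library left out. Of 289 alternative values for 23 members, 264 kept their direction. Since no member passed in any run, the side of the threshold never changed. The runs share the same libraries, so this count measures no independent agreement. For the members that changed sign, the cause was not tested. Tnf was -0.022 with TMM factors, -0.033 with quantile normalization, -0.044 with array weights, and -0.16 to 0.29 with 1 library or a pair left out. Tnfsf12 was -0.069 with TMM factors, -0.053 with quantile normalization, -0.0039 with array weights and -0.14 to 0.21 with libraries left out. Tnfrsf1a was -0.052 with TMM factors, -0.020 with quantile normalization and -0.034 to 0.15 with libraries left out. With libraries left out, Tnfrsf12a was -0.17 to 0.40, and Ltb -0.90 to 0.37. Tnfrsf13c was 0.11 with array weights, and -1.01 to 0.091 in the 3 fits it entered, without Pax7-CreERT replicate 1, Pax7-CreERT replicate 2 or control replicate 1. Depth limits the faint members, where 1 CPM is 4.05 to 13.4 reads.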
